A study of Homo sapiens with 8 samples.

Results

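Matrix metalloproteinases (MMPs) are zinc-dependent proteases that cut collagens, fibronectin and other proteins of the extracellular matrix. Most are secreted as inactive proenzymes, a few are held in the plasma membrane, and TIMPs block their active site. The urokinase system works beside them: urokinase, bound to its receptor on the cell surface, cuts plasminogen to plasmin, which degrades fibrin and can activate several pro-MMPs. In skin, keratinocytes at a wound edge switch on parts of both systems as they migrate.

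The 9 genes described here, of 61806 in the deposited table, were chosen by gene symbol, with earlier results of these data known. They are the secreted proteases MMP1, MMP9 and MMP10, the membrane protease MMP14, the inhibitors TIMP1 and TIMP2, and the urokinase genes PLAU (urokinase), PLAUR (its receptor) and SERPINB2 (plasminogen activator inhibitor type 2). Their mRNA was measured in N/TERT cells (N/TERT-1, one immortalized line of human epidermal keratinocytes, wild type), in 4 libraries from cells given ethanol, the solvent, and 4 from cells treated for 4 hours with O/A, the combination of oligomycin (an inhibitor of the mitochondrial ATP synthase) and antimycin A (an inhibitor of complex III). All cells grew in serum-free keratinocyte medium with epidermal growth factor and pituitary extract, so both conditions share these additives. The libraries held 17210404 to 20999927 counted reads in ethanol and 17689760 to 19263046 in O/A. Libraries of one condition differed by more than their sampling noise (chi-square per degree of freedom from 1.67 to 4.87), so none was a copy of another. All 12 keratinocyte markers examined were expressed, with a summed level of 6567 to 6966 FPKM under ethanol and 5877 to 6141 under O/A. Of these 12 markers DSG3 was upregulated and KRT5 and SFN downregulated by the rule given in the next paragraph. By that rule 34.7% of all genes tested were called, and the median log2 fold change of the markers was -0.034. The part of these changes in the results was not tested. Fibroblast, melanocyte, leukocyte and endothelial markers each summed to at most 2.95 FPKM in any library. MLANA, TYR, KIT and CD207 had no count and PTPRC at most 1, while COL1A1 had 376 to 557 counts. CD68, a leukocyte marker, had 15 to 33 counts and was called at a log2 fold change of 0.56.

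All 9 genes had enough reads to be tested, the lowest count being 39, for MMP9. The comparison of O/A with ethanol used the quasi-likelihood test of edgeR on TMM-scaled counts. Of all genes, 14893 reached 10 counts in 4 or more libraries and were tested, and p-values were adjusted over all of these (Benjamini-Hochberg). A gene was called at an adjusted p of 0.05 or less combined with a log2 fold change, log2(FC), beyond 0.25 in either direction, which is the fold threshold of the study. MMP1, MMP9, MMP10, PLAU, PLAUR and SERPINB2 were upregulated in O/A, and none of the 9 was downregulated. This is 6 of 9, where 15.8% of all genes tested were upregulated and 34.7% were called in either direction. How far the choice of genes with earlier results known raised this and the later shares was not tested. Without the fold threshold 8 of the 9 genes passed, all higher in O/A, where 26.0% of all genes tested passed as higher and 53.7% passed in either direction. MMP14 and TIMP1 were higher in O/A by less than the fold threshold, and for TIMP2 no difference was called. The median log2(FC) of the 9 genes was 0.72, and that of all genes tested was -0.00040. In bulk RNA, a change in the number of cells that express a gene and a change in its RNA per cell cannot be told apart.

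**Figure D1:**
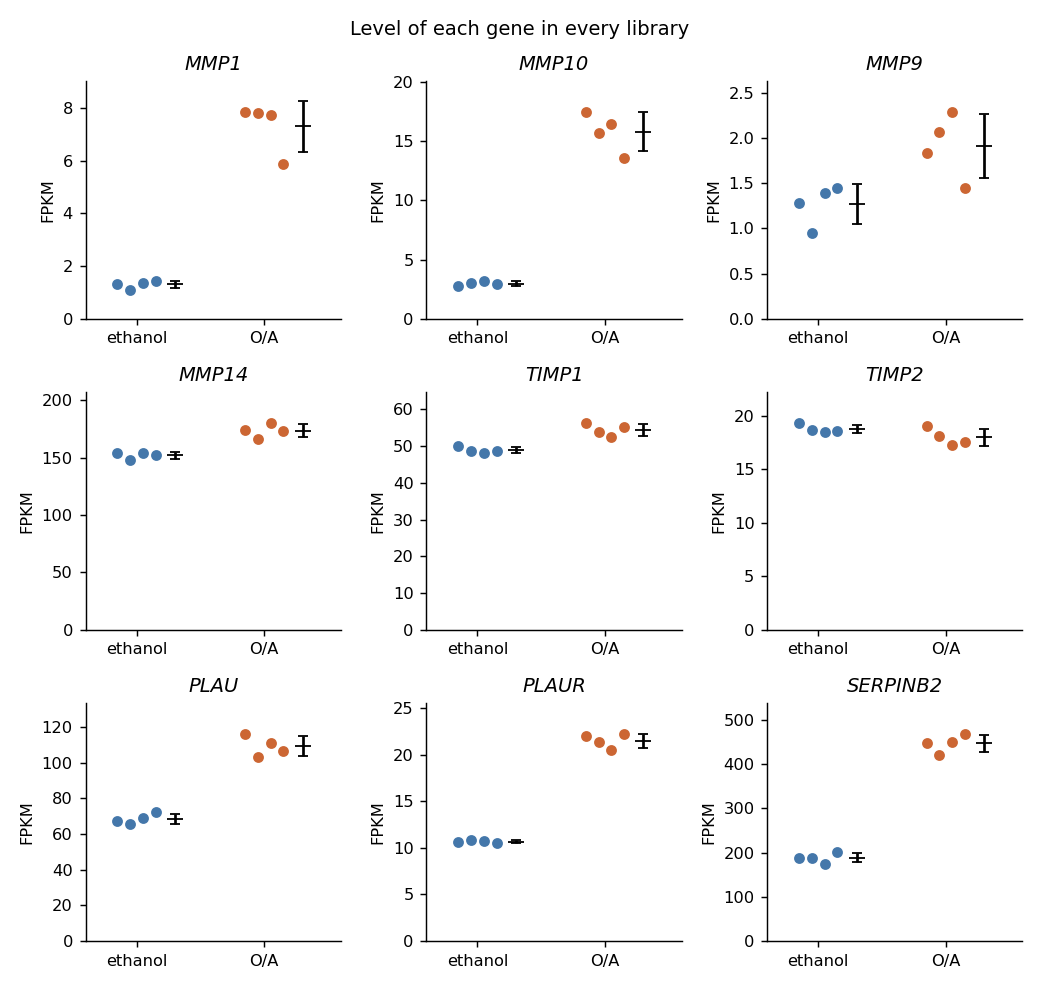
Level of each of the 9 genes in FPKM (counted fragments scaled by exonic length and library total), 1 point per library, 4 ethanol and 4 O/A, with the mean and SD (n = 4) in black. Every axis starts at 0; the O/A points of MMP1, MMP10, PLAU, PLAUR and SERPINB2 all lie above the ethanol points, and those of TIMP2 overlap them.

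Promoter sequences are shown for genes that rose, to set the shared letters side by side. RefSeq windows on GRCh38.p14 were found for 6 of the 9 genes (MMP10, MMP14, TIMP1, PLAU with 2 starts, PLAUR and SERPINB2). MMP1, MMP9 and TIMP2 had none in the table used. The letters TGANTCA read as the same motif on both strands and are only like those of AP-1 sites. Within the 250 bases before the start they occurred in MMP10, PLAUR and SERPINB2, 3 of the 6 genes. They occurred in 6.57% of all 35116 windows. The matched letters were TGAATCA in MMP10 and SERPINB2 and TGAGTCA in PLAUR. The letters TATAAA, searched on the strand of the gene only, occurred in MMP10 and SERPINB2, and in 6.80% of all windows. The letters TGATGNAA, those of a composite C/EBP-ATF site that binds ATF4, were searched on both strands and occurred in none of the 6 genes and in 3.14% of all windows. No matches overlapped. With -1 as the base before the start, the match to TGANTCA began at -67 in MMP10, -102 in SERPINB2 and -186 in PLAUR. The match to TATAAA began at -31 in MMP10 and -30 in SERPINB2. These are matches of letters, and no binding was measured here. The capitals in the sequences mark both matches, read 5′ to 3′ on the strand of the gene. All 250 bases are given for MMP10 (chr11:102780629-102780878, minus strand) and SERPINB2 (chr18:63887455-63887704, plus strand, before a start that lies inside the gene interval of the deposited table). For PLAUR the 27 bases around its match are given (chr19:43670339-43670365, minus strand). The searched windows of PLAUR, SERPINB2 and PLAU lie wholly inside the gene intervals of the deposited table.
MMP10: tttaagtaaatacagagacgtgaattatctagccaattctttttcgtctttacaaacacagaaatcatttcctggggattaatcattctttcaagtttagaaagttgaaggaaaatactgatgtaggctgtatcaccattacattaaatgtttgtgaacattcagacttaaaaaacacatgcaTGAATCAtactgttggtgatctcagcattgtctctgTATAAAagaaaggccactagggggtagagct
SERPINB2: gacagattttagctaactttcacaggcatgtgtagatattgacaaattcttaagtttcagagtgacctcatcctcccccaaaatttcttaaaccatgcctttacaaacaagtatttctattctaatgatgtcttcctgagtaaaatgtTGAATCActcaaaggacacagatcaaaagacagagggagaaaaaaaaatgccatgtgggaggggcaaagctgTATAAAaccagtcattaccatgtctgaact
PLAUR: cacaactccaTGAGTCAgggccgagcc

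The largest rises among the 9 genes were those of the collagenase MMP1, which cuts fibrillar collagens, and the stromelysin MMP10, which cuts a broad range of matrix proteins. MMP1 lies on the minus strand of chromosome 11 of GRCh38 (chr11:102789401-102798160). It had 66, 53, 64 and 83 counts in ethanol replicates 1 to 4 and 380, 403, 407 and 285 in O/A replicates 1 to 4. Every O/A library was therefore above every ethanol library, and O/A replicate 4 was the lowest of its group. The log2(FC) was 2.53 (SE 0.105, edgeR adjusted p = 6.62e-25), which is 5.76-fold with a 95% interval from 4.98 to 6.67. MMP10, the next gene of the cluster, with the match to TGANTCA shown before (chr11:102770502-102780628, minus strand), had 88, 93, 96 and 109 counts under ethanol and 544, 521, 559 and 424 under O/A. These groups did not overlap either, and O/A replicate 4 was again the lowest of its group. The log2(FC) of MMP10 was 2.46 (SE 0.0851, edgeR adjusted p = 4.42e-30), or 5.52-fold with a 95% interval from 4.90 to 6.21. Among all 14893 genes tested, MMP1 ranked 43 and MMP10 ranked 47 by log2(FC) from the highest. WTAPP1, which lies on the opposite strand across both genes, held 3 to 10 counts per library. This amounts to 3.39% of the reads on MMP1 and 2.42% of those on MMP10, and whether counting used strand is not stated.

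MMP9, a gelatinase that cuts basement membrane collagen, was low and rose less. It lies on chromosome 20 (chr20:46008908-46016561, plus strand) and had 55, 39, 56 and 71 counts under ethanol and 76, 91, 103 and 60 under O/A. After TMM scaling the lowest O/A library, replicate 4, had 3.45 CPM (counts scaled to a common library size) and the highest ethanol library 3.34, so the groups were separated by little. As FPKM, O/A replicate 4 and ethanol replicate 4 were both 1.45. The log2(FC) was 0.64 (SE 0.152, edgeR adjusted p = 3.67e-04), a 1.55-fold rise with a 95% interval from 1.26 to 1.92. On log2(FPKM + 1), where low genes are compressed, it was 0.36.

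MMP14, a membrane-bound protease that activates pro-MMP2 at the cell surface, was by far the most abundant of the 4 MMPs. It lies on chromosome 14 (chr14:22836560-22849041, plus strand). Its level was 154, 148, 154 and 152 FPKM under ethanol and 174, 166, 180 and 173 under O/A. The groups did not overlap, but the log2(FC) of 0.24 (SE 0.0261, edgeR adjusted p = 5.08e-11) was within the fold threshold. Without O/A replicate 2 it was 0.27, past the threshold, and under quantile normalization it was 0.11.

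TIMP1 and TIMP2 inhibit secreted MMPs, and TIMP2 also joins MMP14 to pro-MMP2. TIMP1 (chrX:47582408-47586789, plus strand) measured 50.1, 48.8, 48.1 and 48.6 FPKM under ethanol and 56.2, 53.9, 52.4 and 55.0 FPKM under O/A. Its groups did not overlap, and its log2(FC) was 0.20 (SE 0.0368, edgeR adjusted p = 8.44e-06), within the fold threshold. SYN1, on the opposite strand across TIMP1, held reads amounting to 1.58% of those on TIMP1. TIMP2 (chr17:78852977-78925387, minus strand) measured 19.3, 18.7, 18.5 and 18.6 FPKM under ethanol and 19.0, 18.2, 17.3 and 17.5 FPKM under O/A, with overlapping groups. Its log2(FC) was -0.015 with a 95% interval from -0.084 to 0.053 (edgeR adjusted p = 0.736). This interval lies inside the fold threshold on both sides.

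The 3 genes of the urokinase system all rose. PLAU (chr10:73909177-73917496, plus strand) measured 67.3, 65.6, 69.1 and 72.2 FPKM under ethanol and 116, 103, 111 and 107 under O/A. Its log2(FC) was 0.72 (SE 0.0337, edgeR adjusted p = 1.01e-16), a 1.64-fold rise with a 95% interval from 1.57 to 1.72. C10orf55, on the opposite strand across part of PLAU, held reads amounting to 1.22% of those on PLAU. PLAUR (chr19:43646095-43670547, minus strand) measured 10.6, 10.9, 10.7 and 10.5 FPKM under ethanol and 21.98, 21.4, 20.5 and 22.2 FPKM under O/A. Its groups were far apart relative to their spread, and its log2(FC) was 1.06 (SE 0.0384, edgeR adjusted p = 3.58e-29), or 2.08-fold with a 95% interval from 1.97 to 2.19.

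SERPINB2, which inhibits urokinase and is largely kept inside the cell, was the most abundant of the 9 genes. It lies on chromosome 18 (chr18:63871692-63903888, plus strand), shares the TGAATCA and TATAAA letters of the MMP10 promoter, and measured 188, 189, 175 and 201 FPKM under ethanol and 448, 422, 452 and 468 under O/A. Every O/A library was above every ethanol library by a wide margin. The log2(FC) was 1.30 (SE 0.0421, edgeR adjusted p = 8.69e-12), a 2.45-fold rise with a 95% interval from 2.30 to 2.62.

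For 8 of the 9 genes every O/A library, as TMM-scaled CPM, lay above every ethanol library, where 22.8% of all genes tested did so and 47.6% were separated in either direction. For each of these 8 genes the exact two-sided permutation test gave p = 0.0286, which 4 against 4 libraries cannot go below, and for TIMP2 it gave p = 0.686. At a stricter absolute log2(FC) above 1, MMP1, MMP10, PLAUR and SERPINB2 were called, 4 of 9, where 2.56% of all genes tested were upregulated by that rule and 5.35% were called in either direction.

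**Figure D2:**
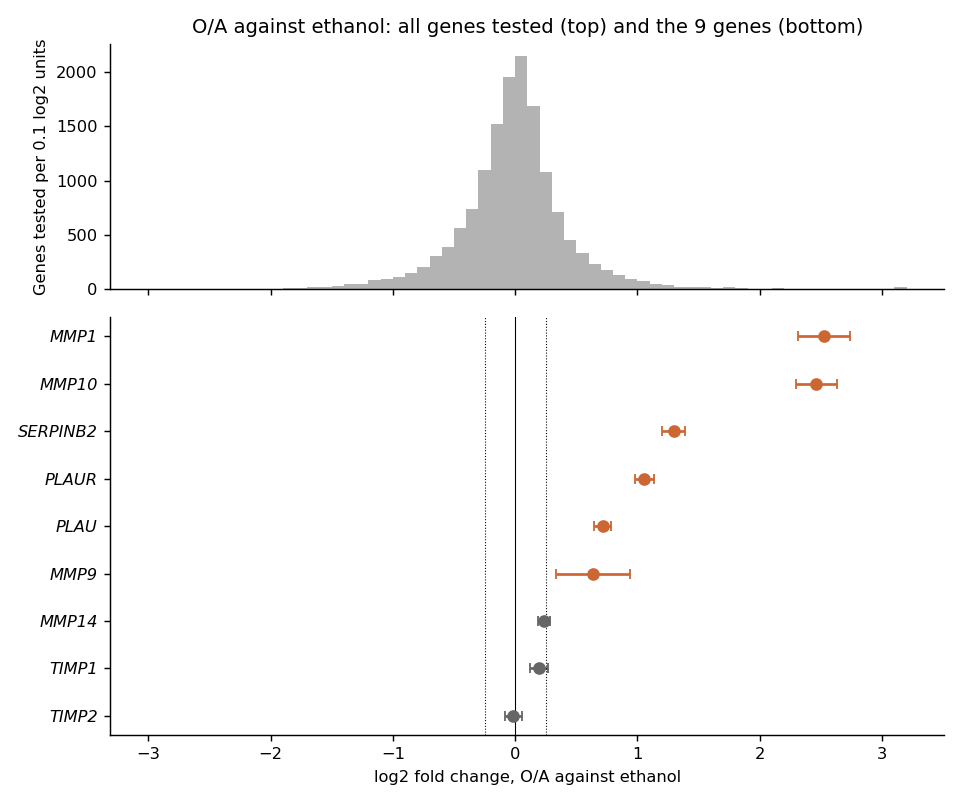
Bottom, log2(FC) of O/A against ethanol for each of the 9 genes with its 95% interval from edgeR's quasi-likelihood fit on 4 libraries per condition; orange marks called genes and dotted lines the fold threshold of 0.25. Top, the number of genes tested in each bin of log2(FC) on the same axis, with values beyond the axis placed in the end bins; MMP1 and MMP10, near 2.5, lie in its far right tail.

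The order of the levels, compared per length as FPKM, changed little. In ethanol it ran SERPINB2 at 188 ± 10.3 FPKM (SD, n = 4), MMP14 at 152 ± 3.06, PLAU at 68.5 ± 2.81, TIMP1 at 48.9 ± 0.814, TIMP2 at 18.8 ± 0.379, PLAUR at 10.7 ± 0.160, MMP10 at 2.96 ± 0.186, MMP1 at 1.30 ± 0.145 and MMP9 at 1.27 ± 0.223. The ranges of all neighbours in this order were separate except those of MMP1 and MMP9. In O/A PLAUR, at 21.5 ± 0.770 FPKM (SD, n = 4), stood above TIMP2, at 17.998 ± 0.792, and the ranges of TIMP2 and MMP10, at 15.8 ± 1.65, overlapped. MMP1 reached 7.32 ± 0.965 FPKM in O/A and was then separate from MMP9, at 1.91 ± 0.359.

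The ratio of 2 genes within a library does not depend on the scaling between libraries, and it tests whether the pair changed unequally. Of 6 pairs compared, 4 differed between conditions with no overlap (exact permutation test, p = 0.0286 each, and 0.0429 after adjustment over the 6 pairs). The log2 ratio of the counts of PLAU to SERPINB2 ran from -1.42 to -1.24 under ethanol and from -2.03 to -1.84 under O/A, a difference of -0.58. The mRNA of the inhibitor therefore rose more than that of its target protease. The log2 ratio of PLAU to PLAUR ran from 2.00 to 2.19 under ethanol and from 1.67 to 1.84 under O/A, a difference of -0.34, so that the receptor rose more than its ligand. The log2 ratio of MMP14 to TIMP2 was 2.70 to 2.77 under ethanol and 2.91 to 3.10 under O/A, a difference of 0.25. That of TIMP1 to TIMP2 was -0.588 to -0.575 under ethanol and -0.400 to -0.311 under O/A, a difference of 0.21. For MMP10 to MMP1 the ratio ranges overlapped, 0.391 to 0.805 under ethanol and 0.370 to 0.572 under O/A (exact permutation test, p = 0.60, the same after adjustment). For MMP9 to TIMP1 they overlapped as well, -4.97 to -4.37 under ethanol and -4.54 to -3.82 under O/A (exact permutation test, p = 0.114, and 0.137 after adjustment over the 6 pairs).

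MMP1 and MMP10 sit in a run of 9 MMP genes on chromosome 11, all on the minus strand. Of these, MMP3, which adjoins MMP1, was the other gene that could be tested. MMP3, a stromelysin, had 0, 3, 3 and 0 counts under ethanol and 21, 13, 20 and 21 under O/A, so it passed the count filter through its O/A libraries alone. MMP8, which adjoins MMP10, was too low to test, with 1 to 6 counts under ethanol and 9 to 13 under O/A. MMP7, MMP12 and MMP27 had at most 5 counts in any library, MMP20 at most 1, and MMP13 had 4 to 17. SERPINB2 lies in a run of 10 clade B serpin genes on chromosome 18. Its neighbour SERPINB10 had 10 to 22 counts in either condition and a log2(FC) of -0.054, and SERPINB7, on its other side, was abundant at 170 FPKM under ethanol and 164 under O/A (log2(FC) -0.0075, edgeR adjusted p = 0.828). SERPINB8, at the end of the run, rose from 13.98 ± 0.424 to 28.2 ± 0.488 FPKM (SD, n = 4), a log2(FC) of 1.06 (edgeR adjusted p = 1.54e-32). SERPINB5 at the other end was called at a log2(FC) of 0.26, next to the threshold. SERPINB3 and SERPINB4 are near-identical copies whose reads may be split between them, and neither was called.

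Other genes of these pathways were called in both directions. Of all genes tested, 15.8% were upregulated and 18.9% downregulated, for comparison with the counts of each list below. Of 19 other MMP genes, 10 could be tested, among them MMP3, which is not counted here because it passed the count filter through O/A alone. With MMP3 included, the median log2(FC) of the genes tested was -0.25. MMP28 and MMP19 were upregulated, at a log2(FC) of 0.45 and 0.29, with groups that did not overlap. MMP25, with 11 to 26 counts per library, was downregulated at a log2(FC) of -0.74, with groups that did not overlap either. MMP15 and MMP17 were downregulated at -0.30 and -0.28, and the groups of both overlapped. Without ethanol replicate 3, MMP19, MMP25 and MMP17 were no longer called. MMP2, the gelatinase that MMP14 activates, was at 3.71 ± 0.276 FPKM under ethanol and 3.06 ± 0.127 FPKM under O/A (SD, n = 4). The groups of MMP2 did not overlap, and its log2(FC) was -0.23 (edgeR adjusted p = 0.00525), within the fold threshold.

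Among 11 other regulators of MMPs, 9 could be tested, with a median of 0.087, and 2 were called, both downregulated. TIMP3, a matrix-bound inhibitor of MMPs and ADAMs, measured 18.3, 18.4, 18.2 and 16.9 FPKM under ethanol and 8.93, 9.90, 9.76 and 9.20 FPKM under O/A. The groups did not overlap, and the log2(FC) of TIMP3 was -0.88 (SE 0.0419, edgeR adjusted p = 3.63e-24). RECK, a membrane-anchored inhibitor, fell from 1.35 ± 0.0589 to 0.880 ± 0.0739 FPKM (SD, n = 4), a log2(FC) of -0.57. Without O/A replicate 1, 4 of these regulators were called, 3 of them downregulated. BSG, which induces MMPs, TFPI2, a protease inhibitor of the matrix, and FURIN, a convertase of pro-MMP14, were not called.

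Of 18 other plasminogen system genes, 13 could be tested, with a median log2(FC) of -0.00092, and 3 were upregulated. SERPINE2 (protease nexin 1) rose by a log2(FC) of 0.61 and PLAT (tissue plasminogen activator) by 0.30. LRP1, the receptor that clears complexes of urokinase and its inhibitors, was called at 0.27, although its groups overlapped. S100A10 and ANXA2, which together bind plasminogen at the cell surface, were abundant and not called, at a log2(FC) of -0.085 and -0.00092. PLG, which encodes plasminogen itself, had no count in any library.

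The 25 ADAM and ADAMTS genes, relatives of the MMPs, gave 13 that could be tested, 2 upregulated and 3 downregulated, with a median of -0.037. ADAM8 rose by a log2(FC) of 0.75 and ADAM17, the main sheddase of growth factor precursors, by 0.37. ADAMTS15, with 66 to 87 counts under ethanol and 9 to 14 under O/A, had a log2(FC) of -2.65. ADAMTS1 had one of -1.25 and ADAM12, with 14 to 44 counts per library, one of -0.78. Among 22 matrix and basement membrane genes, which include MMP substrates, 18 could be tested, with a median of 0.0068, and 1 was upregulated (TNC at 0.27) and 2 downregulated. THBS1 (thrombospondin 1) fell from 774 ± 28.4 to 305 ± 12.2 FPKM (SD, n = 4), a log2(FC) of -1.30, and COL4A1 had -0.37. FN1 (fibronectin), the most abundant of them at 1012 FPKM under ethanol and 1004 under O/A, was not called. Of these 22 genes, 5 were called when ethanol replicate 4 was left out, and 5 when O/A replicate 3 was. Among the 12 other clade B serpins, 10 could be tested and 3 were upregulated, SERPINB8, SERPINB1 (log2(FC) 0.44) and SERPINB5.

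AP-1 and ETS factors bind sites known from promoters of MMP and urokinase genes. All 15 on the list could be tested, and 10 were upregulated and 1 downregulated, with a median log2(FC) of 0.63. Of all genes tested, 15.8% were upregulated and 18.9% downregulated. ATF3 rose from 10.9 ± 0.758 to 41.8 ± 2.27 FPKM (SD, n = 4), a log2(FC) of 1.98. FOS had 84 to 133 counts under ethanol and 284 to 361 under O/A, a log2(FC) of 1.69. ETV5 rose by 1.26, FOSB by 1.19 and FOSL1 by 0.85 on the log2 scale, and FOSL2 had a log2(FC) of -0.45. Whether any of these factors acted on the 9 genes was not tested.

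Likeness to MMP1, the gene with the largest fold change of the 9, was measured by Pearson's r of log2 CPM over the 8 libraries, as a description. The closest genes were KIF5B (r = 0.999, log2(FC) 0.30), CEP120 (r = 0.999, log2(FC) 0.87) and BCL2L2 (r = 0.998, log2(FC) 0.59). With 2 conditions the measure mostly reads the shift between them, and 1321 of 14892 genes had an r above 0.95.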

How the data were processed

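For the 8 mRNA libraries the paper gives 4 independent experiments for each condition, and 4 for the comparison in its volcano plot. Which libraries shared an experiment is not stated. Sample labels gave condition and replicate number but no dose, and the treatment time comes from the paper. The authors selected mRNA with oligo(dT), mapped read pairs to GRCh38.p13 using HISAT2 2.0.1 (versions from the submitters' processing notes) and obtained each deposited count per gene using HTSeq 0.6.1. From these the authors derived the deposited FPKM, which differed by no more than 0.005 from a recalculation with exonic size and library total. A strand setting is not given in the sources used here. The authors' deposited DESeq2 comparison (fold changes and p-values) was not used.

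The main test was the robust quasi-likelihood test of edgeR 4.0.16 (R 4.3.3) after TMM scaling. The standard error (SE) is the absolute log2(FC) over the square root of the F statistic. Alternatives used DESeq2 1.42.0, limma 3.58.1 and other settings. Ratios used log2(count + 0.5), and CPM were logged after adding 0.1. On simulated counts with 14720 genes tested, 14523 of them unchanged, edgeR made 1 false call. It recovered 35 of 49 genes changed by 0.35 (log2), 31 of 50 changed by 0.5, 47 of 49 changed by 1 and 49 of 49 changed by 2. Far fewer genes changed in the simulation than were called in the data, so these rates may not carry over.

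The members and lists were chosen with earlier results of these data known. In each list the largest called changes, the most abundant genes and genes too low to test could be named. SERPINB3, SERPINB4 and SERPINB10 fall outside this rule and were named after their values were seen. One gene of the plasminogen list is not reported here. Symbols missing from the table were filled for 20380 genes. Counting limits precision for genes with few reads, such as MMP9, and libraries of one condition also differed by more than sampling noise. Genes with under 10 counts in most libraries were not tested.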

Additional observations from a re-analysis of the deposited data

Results flagged for a closer look

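MMP1 in O/A replicate 4 was far from the other O/A libraries, at 16.4 TMM-scaled CPM against 21.5 to 21.9. It was 1 of 30 groups of 4 values in which one value stood this far apart, and chance gives about 1 in 20, or 1.5 of 30. The same library was also the lowest of its group for MMP10, at 24.4 CPM against 28.1 to 31.3, and for MMP9, at 3.45 CPM against 4.37 to 5.45. Without it the log2(FC) was 2.62 for MMP1, 2.53 for MMP10 and 0.74 for MMP9. For SERPINB2 this library was instead the highest of its group, at 1307 CPM against 1172 to 1262. It was also the highest for PLAUR, at 100.9 CPM against 93.1 to 99.7. For MMP14, TIMP1, TIMP2 and PLAU it was neither the lowest nor the highest. The cause of these differences was not tested.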

How the results depend on the processing

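Each of the 9 genes was recomputed under 15 alternatives (DESeq2, limma on log2(FPKM + 0.1) and log2(FPKM + 1), no filter on low counts, scaling by median ratios or quantiles, a replicate block and each library left out), and 132 of 135 values kept their direction and their side of the thresholds. MMP14 passed the fold threshold, at 0.27, without O/A replicate 2, ranged from 0.22 to 0.27 over the fits that left out 1 library, and was 0.11 under quantile normalization. TIMP2 ranged from -0.043 to 0.0038 with 1 library left out, turning to 0.0011 when ethanol replicate 1 was left out and to 0.0038 when O/A replicate 3 was, with edgeR adjusted p from 0.319 to 0.985. On log2(FPKM + 0.1) it was -0.061. The cause of these shifts was not tested. The lowest log2(FC) over these alternatives, on log2(FPKM + 1), was 1.85 for MMP1 and 2.08 for MMP10. Over the same alternatives 6 or 7 of the 9 genes were called, 8 without a fold threshold and 4 above an absolute log2(FC) of 1. Across all genes 7999 were called without a fold threshold and 797 above an absolute log2(FC) of 1, against 5165, and 4987 to 5114 with 1 library left out. Of 119 counts over the other lists, 101 stayed within 1.5 times. Libraries of the same number did not deviate together (correlations from -0.022 to 0.067), and not every library correlated best with its own number. Such small correlations cannot show whether libraries of one number shared an experiment, and the main tests treated them as unpaired. With the replicate number as a block, 6 of the 9 genes and 5160 of all genes were called, and no call of the 9 changed. The ratios of 2 genes kept their direction with each library left out, except MMP10 to MMP1, which ranged from -0.12 to 0.018. No exact permutation test on 3 libraries against 4 (smallest p = 0.0571) or on 4 pairs (0.125) could pass the threshold for a ratio. Low counts limit MMP9, with 39 to 103 reads per library.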
